A study of Mus musculus with 24 samples.

Results

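Gpnmb encodes a membrane-spanning glycoprotein found in lysosomes and at the cell surface, and it was examined together with 9 genes of the MiT/TFE pathway in cultured mouse hypothalamic cells kept in high or normal glucose. The 10 genes were Gpnmb, the transcription factors Mitf, Tfeb and Tfe3, the folliculin complex genes Flcn, Fnip1 and Fnip2, the Rag GTPase Rragd, the autophagy receptor Sqstm1 and the autophagy regulator Uvrag, out of 56941 gene IDs in the deposited files. The set was picked because Gpnmb was about 3-fold higher in high glucose in these same data, and the other genes were placed around it as known regulators or targets. The difference of Gpnmb between the media is therefore a description here and carries no p-value.

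The series is RNA-seq of a cell line labelled as hypothalamic cells, described as adult mouse hypothalamic neurons, with 24 libraries in 8 groups of 3. In high glucose the groups were HG1, HG2 and HG3, treated with mogroside V, a sweet-tasting glycoside from monk fruit, and HGC, the control without it. In normal glucose the groups were NG1, NG2 and NG3, treated with mogroside V, and the control NGC. The design lists doses of 15, 60 and 160 µM, and the labels do not say which group number had which dose, so 1 to 3 serve here only as dose labels. The labels give no glucose concentration, exposure time, name of the line or genotype. They do not say that replicates are separate cultures, and the p-values reflect only how far these libraries spread.

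MiT/TFE factors are helix-loop-helix proteins that bind E-box DNA and switch on genes for lysosomes and autophagy. When nutrients are plentiful, Rag GTPases bring Tfeb and Tfe3 to the lysosome, where mTORC1 phosphorylates them and they stay in the cytoplasm. Folliculin and its Fnip partners act on RagC and RagD in this step, and loss of folliculin sends the factors to the nucleus. Gpnmb is known from pigment cells, macrophages, microglia and osteoclasts and is a reported target of Mitf and Tfe3. RNA counts show transcript levels and not the phosphorylation or location of these proteins.

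HG2 replicate 3 and HG3 replicate 2 held identical counts on all 56946 lines, and neither was used, which left 22 libraries and n = 2 in HG2 and in HG3. Gene counts per library ran from 3396249 to 7773074, with a median of 3864826. NG3 replicate 3 had the fewest detected genes (16535) and the lowest share of mitochondrial counts (5.43%). HGC replicate 2 had the next fewest detected genes (17110), and results are also given without both libraries. Markers matched the label of hypothalamic neurons poorly. Their values are in CPM, read counts scaled to the gene counts of the library. The 11 neuron markers summed to 118 to 138 CPM in high glucose and 126 to 166 CPM in normal glucose, with Elavl4 at 0. Of 9 hypothalamic neuron markers, Cartpt, Nkx2-1 and Trh were at 0 and the sum reached at most 6.18 CPM in high glucose and 7.33 CPM in normal glucose. The 9 fibroblast or pericyte markers summed to 10059 to 11365 CPM in treated high glucose. In treated normal glucose they summed to 9204 to 11360 CPM, and the ranges overlapped. Of 8 tested, 2 rose and 0 fell in treated high glucose (edgeR), and the median log2 fold change was 0.09. Of all genes tested, 4.69% rose and 3.41% fell, and nothing is read from the counts of so short a list.

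Gpnmb was higher in every high-glucose library than in every normal-glucose library. In the controls it measured 35.9, 35.5 and 33.1 CPM in HGC, against 10.4, 10.9 and 13.03 CPM in NGC. Among treated high-glucose libraries it measured 29.6, 29.7 and 38.1 CPM in HG1, 42.1 and 30.9 CPM in HG2, and 38.4 and 33.1 CPM in HG3. Among treated normal-glucose libraries it measured 8.52, 12.2 and 15.2 CPM in NG1, 12.6, 11.8 and 12.1 CPM in NG2, and 21.8, 10.4 and 20.6 CPM in NG3. The lowest high-glucose value thus lay above the highest normal-glucose value, and 2 of the 3 NG3 libraries stood above all other normal-glucose libraries. These levels rest on 32 to 150 reads per library. In bulk RNA, fewer cells of a type and less RNA per cell cannot be told apart.

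The log2 fold change of Gpnmb was 1.62 ± 0.22 (SE) for HGC against NGC, a 3.07-fold difference. Across the treated groups, which share no library with that comparison, it was 1.40 ± 0.14, a 2.63-fold difference. By dose label it was 1.47 ± 0.23 for HG1 against NG1, 1.62 ± 0.24 for HG2 against NG2 and 1.10 ± 0.24 for HG3 against NG3. The last value falls where 2 of the NG3 libraries were high. Complete separation of all high-glucose from all normal-glucose libraries, with the high-glucose ones higher, was found in 0.572% of the 13281 genes tested, and since the choice of Gpnmb used part of these libraries nothing is read from it. Left-out libraries moved the log2 fold change of the treated groups between 1.32 and 1.47, and leaving out NG3 replicate 3 and HGC replicate 2 together gave 1.44.

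**Figure D1:**
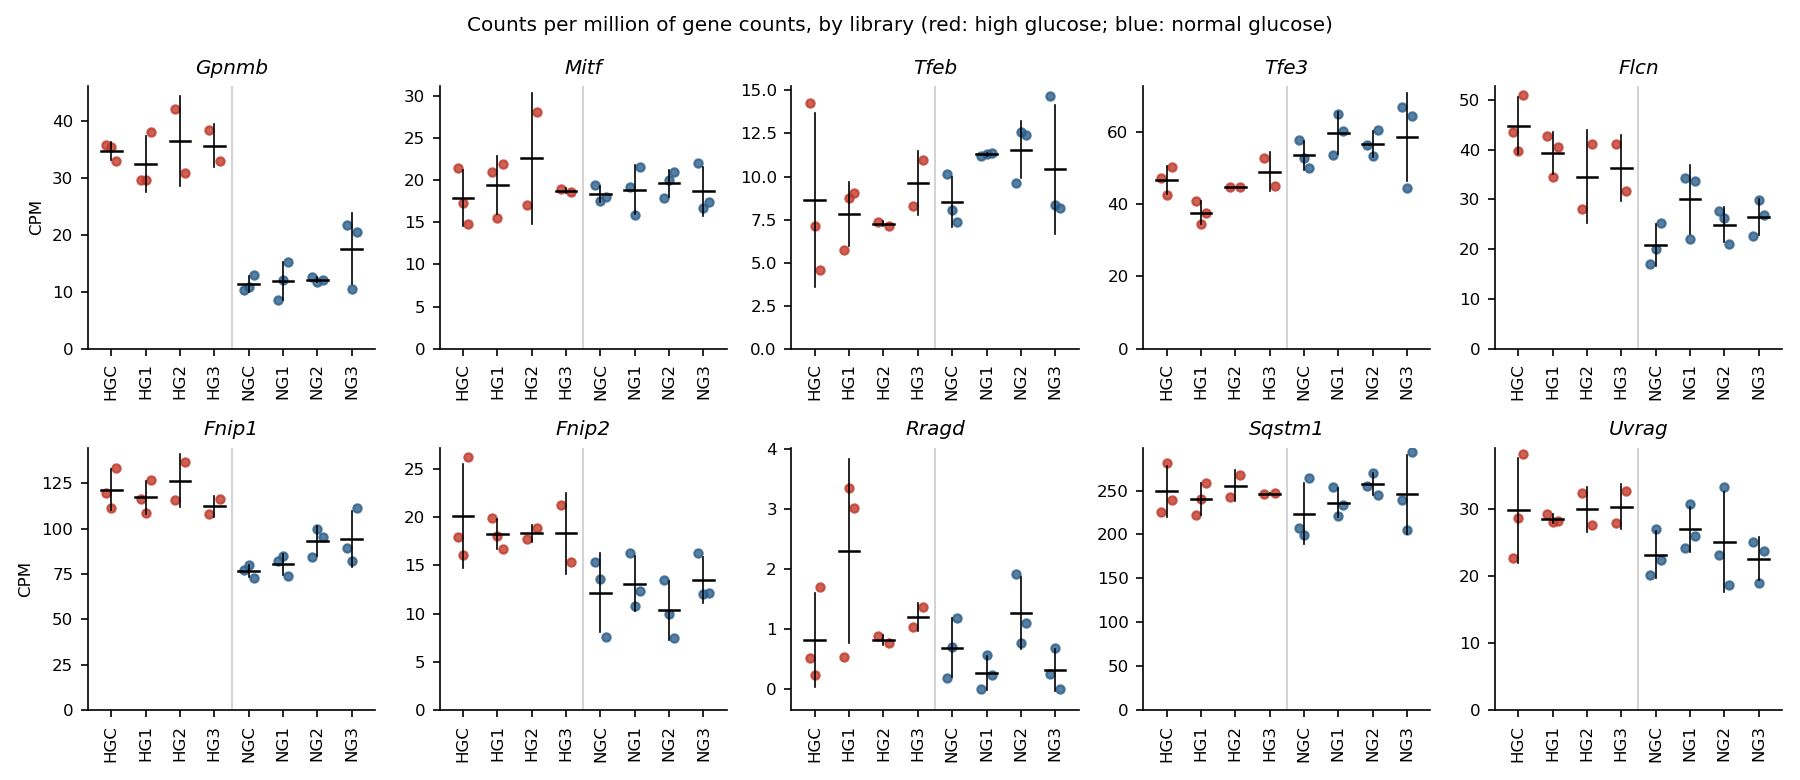
CPM of each of the 10 genes (y axis) in every library kept, by group (x axis), with the 4 high-glucose groups in red left of the 4 normal-glucose groups in blue. Points are libraries, horizontal bars are group means and vertical lines 1 SD (n = 3 per group, 2 in HG2 and HG3). Gpnmb runs from 29.6 to 42.1 CPM in high glucose and from 8.52 to 21.8 CPM in normal glucose, with no overlap, while Mitf and Sqstm1 overlap.

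The stretch of promoter in front of Gpnmb is shown because its letters were searched for the E-box motifs that MiT/TFE proteins bind. The 250 bases before its RefSeq start site, on mouse build GRCm38.p6 at chr6:49036268-49036517, plus strand, hold neither CACGTG nor CATGTG, which would stand in capitals, and the same holds for the first 50 bases after the start. The counts were made on GRCm39, so these coordinates are those of the RefSeq promoter table and not of the deposited files.
Gpnmb: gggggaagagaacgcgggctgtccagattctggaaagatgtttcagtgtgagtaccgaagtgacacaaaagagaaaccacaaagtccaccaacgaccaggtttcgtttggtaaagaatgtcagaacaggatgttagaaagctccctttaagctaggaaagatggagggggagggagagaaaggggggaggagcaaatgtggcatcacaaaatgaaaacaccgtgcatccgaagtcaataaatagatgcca
A motif outside this window would not be seen.

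Per kilobase of exon, Sqstm1 was the most abundant of the 10 genes, at a mean of 72.6 CPM per kb over all 22 libraries. Fnip1 followed at 14.2, Flcn at 7.37, Tfe3 at 5.52 and Gpnmb at 3.53 CPM per kb. Mitf at 3.09 and Uvrag at 2.97 CPM per kb lay close together, above Fnip2 at 1.82 and Tfeb at 1.67 CPM per kb. Rragd was barely detected, at 0.185 CPM per kb. These means pool the media, and the place of Gpnmb differed between them. In all high-glucose libraries Gpnmb stood at 5.32 CPM per kb, above Tfe3 at 4.75. In all normal-glucose libraries Gpnmb stood at 2.04 CPM per kb, below Mitf at 3.05 and Uvrag at 2.71. Tfec, the fourth gene of the MiT/TFE family and not one of the 10, had 0 counts in all 22 libraries, where a floor of 3 counts stands for 0.386 to 0.883 CPM. Among the MiT/TFE transcripts Tfe3 therefore had the highest level per length and Tfeb the lowest of those detected.

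In the treated libraries, the 3 folliculin complex genes rose in high glucose and Tfe3 fell, while Mitf, Tfeb, Rragd, Sqstm1 and Uvrag did not pass the test. This made 4 of the 9 genes other than Gpnmb, where 8.1% of all genes tested passed at an adjusted p under 0.05 (edgeR, Benjamini-Hochberg over 13281 genes); 4.69% rose and 3.41% fell. The genes were chosen with earlier results of these data known, so the count describes the set and does not compare it with other sets. None of these 9 genes separated the treated media completely, which 1.61% of all genes did. Leaving out 1 library at a time gave between 2 and 5 genes called.

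Tfe3, the MiT/TFE factor with the highest level, fell in treated high glucose. It ran from 34.6 CPM (median 44.7) to 52.7 CPM in HG1 to HG3, against 44.5 CPM (median 60.2) to 66.9 CPM in NG1 to NG3. The ranges met only between 44.5 and 52.7 CPM, with most high-glucose libraries below most normal-glucose ones. On the log2 scale the change was -0.37 ± 0.09 (SE) with an edgeR adjusted p of 0.00863, and without HG3 replicate 3 the adjusted p was 0.0522. In the controls Tfe3 measured 47.3, 42.4 and 50.2 CPM in HGC and 57.8, 52.8 and 49.98 CPM in NGC, a log2 fold change of -0.20 ± 0.15, and the single values of the media overlapped.

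Tfeb, the factor best known for lysosome biogenesis, was scarce, with 16 to 75 reads per library. It ran from 5.71 CPM (median 8.31) to 10.9 CPM in treated high glucose, against 8.17 CPM (median 11.3) to 14.7 CPM in treated normal glucose. The ranges overlapped, and its log2 fold change of -0.38 ± 0.20 had an edgeR adjusted p of 0.287. Tfeb was the least steady of the factors in HGC, at 14.3, 7.11 and 4.56 CPM, against 10.2, 8.08 and 7.34 CPM in NGC, with a log2 fold change of 0.02 ± 0.33.

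Mitf, the factor of pigment cells and osteoclasts, did not pass between the treated media. It ran from 15.5 CPM (median 18.9) to 28.1 CPM in treated high glucose and from 15.8 CPM (median 19.2) to 22.1 CPM in treated normal glucose. Its log2 fold change was 0.14 ± 0.14 with an edgeR adjusted p of 0.617. In the controls it averaged 17.8 ± 3.32 CPM in HGC and 18.3 ± 0.940 CPM in NGC (SD, n = 3 each), a log2 fold change of -0.03 ± 0.22, and the libraries of the media overlapped in both comparisons.

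Fnip1, a scaffold partner of folliculin, rose in treated high glucose and kept its call in all 22 fits that left out a library. It ran from 108 CPM (median 116) to 137 CPM in HG1 to HG3, against 74.0 CPM (median 85.0) to 112 CPM in NG1 to NG3. The media overlapped through 1 normal-glucose library, NG3 replicate 3. Its log2 fold change was 0.47 ± 0.08 with an edgeR adjusted p of 4.32e-05. In the controls Fnip1 measured 119, 111 and 133 CPM in HGC, against 77.0, 79.9 and 73.0 CPM in NGC, with no overlap and a log2 fold change of 0.67 ± 0.12.

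Flcn, which encodes folliculin, the GTPase-activating protein for RagC and RagD, also rose in treated high glucose. It ran from 28.0 CPM (median 40.6) to 42.7 CPM in HG1 to HG3, against 21.0 CPM (median 26.9) to 34.3 CPM in NG1 to NG3. The lowest high-glucose libraries lay within the normal-glucose range. On the log2 scale the change was 0.49 ± 0.12 with an edgeR adjusted p of 0.00735, and the call was lost without HG2 replicate 2 (adjusted p = 0.0781) or without HG3 replicate 1 (adjusted p = 0.0507). In the controls Flcn measured 43.6, 39.8 and 51.0 CPM in HGC, against 17.1, 20.0 and 25.4 CPM in NGC, which did not overlap. That log2 fold change was 1.12 ± 0.20, the next after Gpnmb among the 10 genes.

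Fnip2, the paralog of Fnip1, also rose in treated high glucose. It ran from 15.3 CPM (median 18.1) to 21.3 CPM in HG1 to HG3, against 7.45 CPM (median 12.1) to 16.2 CPM in NG1 to NG3. The top normal-glucose libraries reached into the low end of the high-glucose range. Its log2 fold change was 0.62 ± 0.16 with an edgeR adjusted p of 0.0122, and without HG3 replicate 1 the adjusted p was 0.0733. In the controls Fnip2 measured 18.0, 16.1 and 26.2 CPM in HGC, against 15.4, 13.6 and 7.58 CPM in NGC, with a log2 fold change of 0.71 ± 0.26.

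In the controls, Gpnmb, Flcn, Fnip1 and Fnip2 were thus the 4 genes whose HGC libraries all lay above the NGC libraries. Of all genes tested, 8.46% did so, and 2.28% passed an adjusted p under 0.05 in this comparison. The set was chosen on this comparison, so nothing is read from these counts.

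Uvrag, a partner of the lipid kinase Vps34 in autophagosome and endosome maturation, did not pass in treated libraries. It ran from 27.6 CPM (median 28.2) to 32.8 CPM in high glucose and from 18.8 CPM (median 24.2) to 33.4 CPM in normal glucose. Its log2 fold change was 0.31 ± 0.13 with an edgeR adjusted p of 0.134, and among the fits that left out 1 library it passed without NG2 replicate 2 (adjusted p = 0.0370), the normal-glucose library with the highest value. In the controls Uvrag averaged 29.9 ± 7.81 CPM in HGC and 23.3 ± 3.53 CPM in NGC (SD, n = 3 each). Its exons share 1589 bases with an antisense gene, Gm45187, at 0.115 CPM, and no source used here gives the strand setting.

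Sqstm1, the ubiquitin-binding receptor p62 that delivers cargo to autophagosomes, did not pass between the treated media. It ran from 222 CPM (median 246) to 268 CPM in treated high glucose and from 205 CPM (median 245) to 294 CPM in treated normal glucose. The high-glucose range lay wholly inside the normal-glucose range. On the log2 scale the change was 0.06 ± 0.07 with an edgeR adjusted p of 0.704, at 784 or more reads per library. In the controls it averaged 249 ± 28.7 CPM in HGC and 224 ± 34.95 CPM in NGC (SD, n = 3 each). Sqstm1 shares 580 exonic bases with Mrnip on the other strand, which stood at 0.730 CPM.

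Rragd, the RagD GTPase and a reported MiT/TFE target, was near the limit of detection. It had 0.544 CPM (median 1.04) to 3.35 CPM in treated high glucose and 0 CPM (median 0.565) to 1.93 CPM in treated normal glucose. The log2 fold change of 1.42 ± 0.63 had an edgeR adjusted p of 0.175, and most of these values lie at or near a floor of 3 reads. Rragd met the low-count filter only through HG1 replicates 2 and 3, with 13 and 11 reads. The filter thus favoured a higher value in high glucose, and nothing is read from this fold change. Rragd did not pass the test, and with so few reads this does not show that the media were alike.

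**Figure D2:**
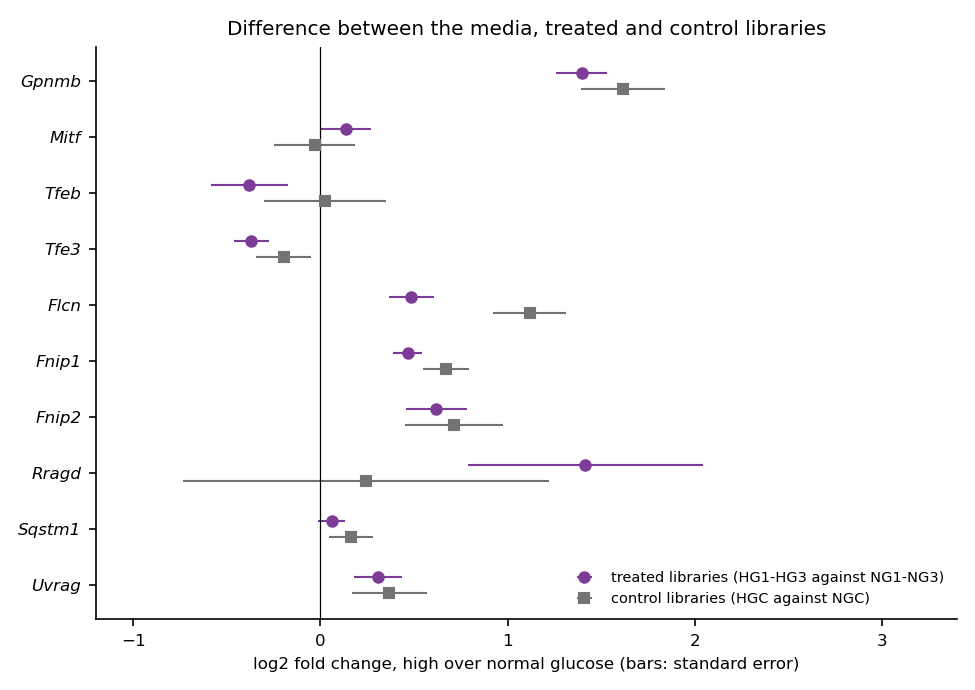
Log2 fold change of high over normal glucose (x axis) for each of the 10 genes, with purple circles for the treated libraries and grey squares for the controls, and bars of 1 standard error. Gpnmb is farthest right among the well-counted genes (1.40 treated, 1.62 control), Flcn lies at 0.49 in treated and 1.12 in control libraries, Rragd has the widest bars, and Tfe3 lies left of 0 in both (-0.37 and -0.20).

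By dose label, 2 of the 9 genes passed at label 1 and none at labels 2 and 3 (edgeR). Of all genes tested, 1.66% passed at label 1, 0.76% at label 2 and 0.919% at label 3. Fnip1 rose in HG1 against NG1, its log2 fold change being 0.59 ± 0.12 (edgeR adjusted p = 0.00489, and 0.0598 without NG1 replicate 3). At label 2 the Fnip1 values were 116 and 137 CPM in HG2 against 84.3, 95.5 and 99.9 CPM in NG2, with a log2 fold change of 0.49 ± 0.14 (edgeR adjusted p = 0.0820). It passed there with DESeq2 (adjusted p = 0.0318), without NG3 replicate 3 and HGC replicate 2 (adjusted p = 0.0210), and with only the groups of the comparison in the fit (adjusted p = 0.0291). With the file held by both HG2 and HG3 kept in HG2 alone it was 0.00912, and with all 24 files 0.0113. At label 3 the log2 fold change was 0.32 ± 0.14 with an edgeR adjusted p of 0.305, and 0.0438 with that file kept in HG3 alone or 0.0427 with all 24 files.

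Tfe3 fell in HG1, at 34.6 to 40.8 CPM, against 53.5 to 64.98 CPM in NG1. Its log2 fold change was -0.62 ± 0.15 with an edgeR adjusted p of 0.0199. The call was lost without NG1 replicate 2 (adjusted p = 0.108), NG1 replicate 3 (0.0734), HG1 replicate 2 (0.152) or HG1 replicate 3 (0.0643). At label 2 the Tfe3 log2 fold change was -0.30 ± 0.17 and at label 3 it was -0.19 ± 0.17, neither of which passed. Libraries of the media did not overlap at a dose label in many genes, at 21.7% of all genes for label 1, 31.6% for label 2 and 24.9% for label 3. Fnip1 and Fnip2 were higher without overlap at labels 1 and 2, Flcn at all 3 labels, and Uvrag and Rragd at label 3, while Tfeb and Tfe3 were lower without overlap at labels 1 and 2. At label 3 Uvrag had 28.0 and 32.8 CPM in HG3 against 19.0 to 25.1 CPM in NG3, and Rragd had 4 and 5 reads in HG3 against 0 to 3 reads in NG3.

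None of the 10 genes passed the test for mogroside V in either medium. Each of these comparisons uses HGC or NGC, on which the set was chosen, so nothing is read from the counts of members. In high glucose, the pooled contrast of the treated groups against HGC called 0 of 10 members and 0% of all genes, and in normal glucose against NGC likewise 0 of 10 and 0% (edgeR). At an unadjusted p under 0.05 the count was 0 members of 679 genes in high glucose and 1 member of 1120 genes in normal glucose. DESeq2 called 0 of the 10 members in either medium, with 0 genes in all in high glucose and 68 in normal glucose. The 6 comparisons of single dose labels with their control also called 0 of 10 members each, where edgeR called 0.128% of all genes in NG3, 0.00753% in NG2 and 0% in the other 4; DESeq2 called 0 of 10 members in each as well.

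Gpnmb averaged 32.5 ± 4.89 CPM in HG1 (SD, n = 3), 36.5 ± 7.92 CPM in HG2 and 35.7 ± 3.79 CPM in HG3 (SD, n = 2 each), against 34.8 ± 1.55 CPM in HGC (SD, n = 3). The log2 fold change over all treated high-glucose groups was -0.01 ± 0.18, and at every dose label the treated libraries lay on both sides of the control values. In normal glucose Gpnmb averaged 11.95 ± 3.33 CPM in NG1, 12.2 ± 0.402 CPM in NG2 and 17.6 ± 6.23 CPM in NG3, against 11.4 ± 1.40 CPM in NGC (SD, n = 3 each). The NG3 mean was carried by replicates 1 and 3, while replicate 2 stayed within the NGC range. The choice of Gpnmb used the HGC and NGC values, so no p is given for it here and nothing is read from its not passing. For NG3 against NGC the log2 fold change was 0.55 ± 0.23. Replicate 3 is also the library with the fewest detected genes, and without it the log2 fold change was 0.44; it was 0.35 without replicate 1 and 0.80 without replicate 2.

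Flcn had an unadjusted edgeR p under 0.05 for mogroside V in normal glucose. It measured 22.04 to 34.3 CPM in NG1, against 17.1 to 25.4 CPM in NGC, with a log2 fold change of 0.51 ± 0.20 (edgeR adjusted p = 0.962). Over all treated high-glucose groups its log2 fold change was -0.29 ± 0.16. Over all treated normal-glucose groups it was 0.34 ± 0.17, and neither passed. All of these mogroside V comparisons use HGC or NGC, on which the set was chosen, so nothing is read from them. The difference between these treatment effects, high minus normal glucose, was -0.63 ± 0.23. It contains the HGC against NGC comparison on which the set was chosen, so no p is given and nothing is read from it. Of the 9 genes other than Gpnmb, 0 passed this test of treatment by glucose, and 0.00753% of all genes did (edgeR). DESeq2 called 29 genes, none of them a member, and 1126 genes had an unadjusted edgeR p under 0.05.

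**Figure D3:**
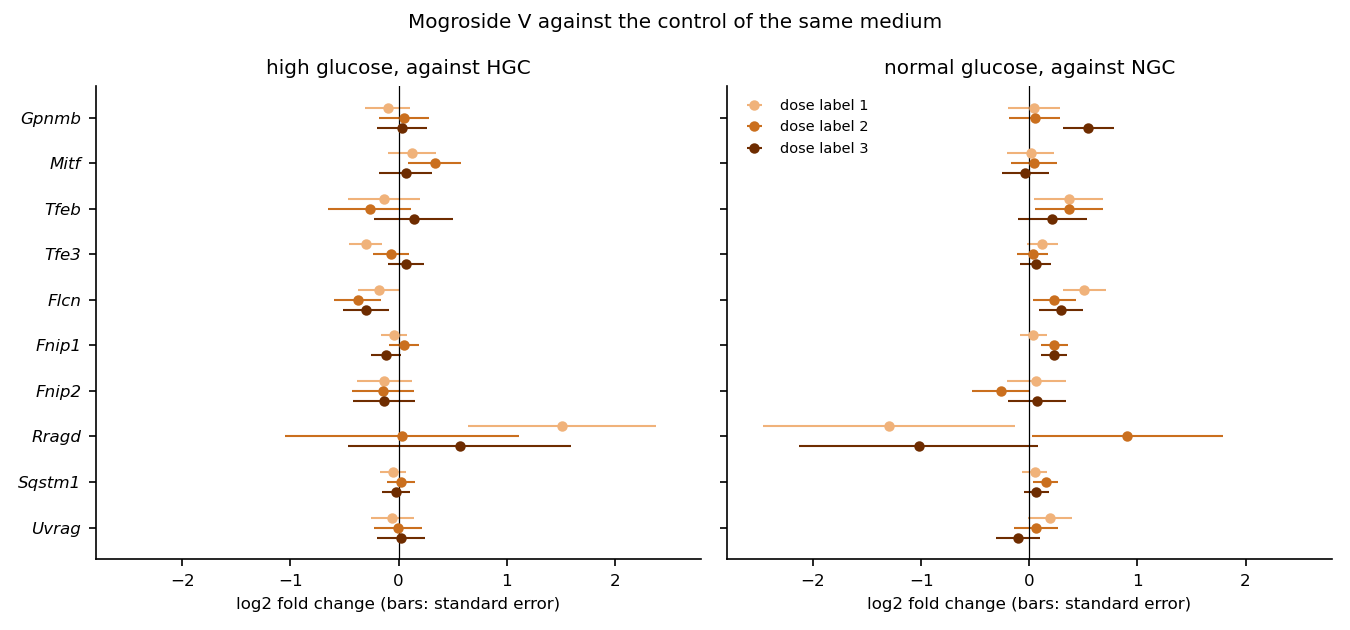
Log2 fold change of each mogroside V group over the control of its own medium (x axis) for the 10 genes, with high glucose on the left and normal glucose on the right, darker points for higher dose labels and bars of 1 standard error. Most bars cross or touch 0, Gpnmb in NG3 stands at 0.55 and Flcn lies left of 0 in high glucose and right of 0 in normal glucose. The 3 dose labels of a medium share 1 control group.

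Reported MiT/TFE targets other than the 10 genes were higher in treated high glucose. Of 30 tested, 21 rose and 0 fell, 28 had a positive log2 fold change, and the median was 0.44. Of all genes tested 4.69% rose, and their median log2 fold change was -0.01. With NG3 replicate 3 and HGC replicate 2 left out together, or 1 library at a time, between 19 and 22 rose. The list was drawn up from general knowledge with earlier results of these data known and is described here without a test of the list. In the controls its median log2 fold change was 0.64.

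The 4 targets with the smallest p-values were Scpep1, Cd63, Rragc and Ctsd. Scpep1, a serine carboxypeptidase, ran from 570.3 CPM (median 666) to 781 CPM in treated high glucose and from 375 CPM (median 450) to 566 CPM in treated normal glucose. The groups did not overlap, and the log2 fold change was 0.64 ± 0.07 with an edgeR adjusted p of 4.57e-09. Cd63, a tetraspanin of late endosomes and lysosomes, averaged 2550 ± 269 CPM in treated high glucose (SD, n = 7) and 1817 ± 176 CPM in treated normal glucose (SD, n = 9), a log2 fold change of 0.55 ± 0.07 with an edgeR adjusted p of 1.39e-07. Ctsd, the lysosomal aspartic protease cathepsin D, averaged 406 ± 37.3 CPM in treated high glucose and 302 ± 36.3 CPM in treated normal glucose, with a log2 fold change of 0.50 ± 0.07 (edgeR adjusted p = 6.07e-06).

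Rragc, the RagC GTPase on which folliculin acts and the better expressed paralog of Rragd, was both a target and a pathway member. It ran from 82.7 CPM (median 96.0) to 108 CPM in treated high glucose, against 58.8 CPM (median 67.4) to 81.5 CPM in treated normal glucose. Every treated high-glucose library lay above every treated normal-glucose one, and the log2 fold change was 0.57 ± 0.08 with an edgeR adjusted p of 4.58e-06. Among the other Rag and Ragulator genes, 2 of 8 rose, Rragc and Rraga (log2 fold change 0.27 ± 0.08, edgeR adjusted p = 0.0231), and the list's median was 0.08.

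Upstream regulators and autophagy genes were counted in the same way, against 8.1% of all genes that passed. In lists as short as these a count of 1 is close to that share, and nothing is read from it about the list. Of 27 genes of mTORC1, the TSC complex and other regulators of MiT/TFE, 0 passed (edgeR adjusted p) and the median was -0.01. Of 13 genes of autophagy initiation other than Uvrag, 1 passed, the kinase gene Ulk2, which fell by 0.54 ± 0.13 on the log2 scale (edgeR adjusted p = 0.00460), and the median was -0.07. Of 18 genes of autophagosome conjugation and membranes, 5 rose and 1 fell, with a median of 0.04. Those with the smallest p-values were Map1lc3b at 0.32 ± 0.07, Atg3 at 0.30 ± 0.07, Gabarap at 0.31 ± 0.08 and Rab7 at 0.27 ± 0.07 on the log2 fold change scale. Map1lc3a, a paralog of Map1lc3b and like it a precursor of autophagosome-bound LC3, was the gene that fell, at -0.29 ± 0.09 (edgeR adjusted p = 0.0309). Of 8 autophagy receptors other than Sqstm1, 1 rose, Tollip at 0.32 ± 0.10 (edgeR adjusted p = 0.0489), and the median was 0.04.

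**Figure D4:**
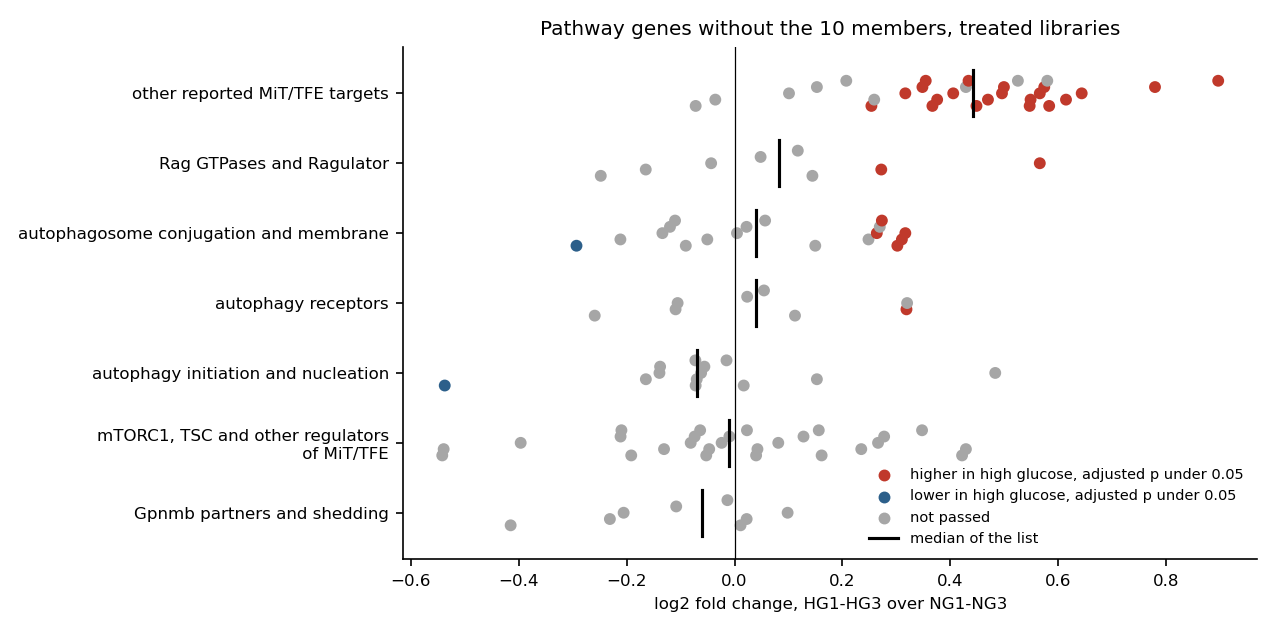
Log2 fold change of treated high glucose over treated normal glucose (x axis) for the tested genes of 7 pathway lists, without the 10 members; red points rose and blue points fell at an edgeR adjusted p under 0.05, grey points did not pass, and black lines are list medians. The reported MiT/TFE targets, at the top, have 21 of 30 genes in red and a median of 0.44, while the other lists have medians between -0.07 and 0.08.

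Genes of proteins that Gpnmb is known to work with, and genes of the cells it is known from, were examined in the same comparison. Of 8 genes for Gpnmb partners and shedding, among them the sheddase gene Adam10, the receptor gene Cd44 and integrin genes, 0 passed (edgeR adjusted p) and the median log2 fold change was -0.06. Of 12 pigment cell genes, reported Mitf targets and Sox10, 1 had enough reads to be tested, Rab27a, and it did not pass. Melanocyte markers summed to at most 1.65 CPM in high glucose and 2.83 CPM in normal glucose, with Tyrp1 and Sox10 at 0. Osteoclast markers summed to 11.9 to 19.1 CPM in high glucose and 9.98 to 22.6 CPM in normal glucose.

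The 18 microglia and macrophage markers summed to 173 to 219 CPM in high glucose and 140 to 232 CPM in normal glucose. Itgam was at 0. In treated libraries the median sum was 184 CPM (173 to 202) in high glucose and 191 CPM (158 to 232) in normal glucose. Most of that sum was 1 gene, Tmem119, at 153 ± 9.10 CPM in treated high glucose (SD, n = 7) and 167 ± 18.6 CPM in treated normal glucose (SD, n = 9). Of the 6 tested, 1 rose in treated high glucose, against 4.69% of all genes tested. Nothing is read from 1 gene in so short a list. That gene was Csf1r, which encodes the receptor for the macrophage growth factor. It averaged 10.7 ± 4.82 CPM in treated high glucose (SD, n = 7) and 5.24 ± 1.91 CPM in treated normal glucose (SD, n = 9). Its log2 fold change was 1.11 ± 0.25 with an edgeR adjusted p of 0.00324. In the controls Csf1r averaged 6.44 ± 2.20 CPM in HGC and 5.70 ± 1.86 CPM in NGC (SD, n = 3 each). The part of macrophage-type RNA in the Gpnmb difference was not tested. Of 6 neuron markers tested, 0 rose and 1 fell, 3 had a positive log2 fold change and the median was 0.03. Of all genes tested, 4.69% rose and 3.41% fell, and nothing is read from the neuron counts. The marker that fell was Map2, a dendrite protein gene, at 38.1 ± 3.04 CPM in treated high glucose (SD, n = 7) against 55.9 ± 7.45 CPM in treated normal glucose (SD, n = 9), a log2 fold change of -0.49 ± 0.10 with an edgeR adjusted p of 0.000636.

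E-box windows are shown for Fnip1 and for the reported targets that rose, since CACGTG, which reads the same on both strands, is the core that MiT/TFE proteins bind in lysosomal genes. In RefSeq promoters of GRCm38.p6, from 250 bases before to 50 after a start site, CACGTG stands in 8.09% of 27025 genes and CATGTG, on either strand, in 15.9%. All 10 members have a promoter in the table; Fnip1 is the 1 that holds CACGTG and 0 hold CATGTG. Of the 39 reported targets, members included, 31 have a promoter and 13 of these hold CACGTG. The 21 other targets that rose make 24 with Gpnmb, Flcn and Fnip2, and 19 of these have a promoter, of which 9 hold CACGTG. Gpnmb is placed with them for its higher values and carries no test. Targets of these factors can be reported because of this motif, so nothing is read from these shares beside that of all genes. Of the 12 reported targets that did not pass, 11 have a promoter, and 4 of these hold CACGTG. The copy closest before the start site is printed for each, 5′ to 3′ on the strand of the gene with the motif in capitals, and Tmem55b carries the RefSeq symbol Pip4p1.
Fnip1, chr11:54438097-54438116, plus strand: ttgctgcCACGTGatacggc
Rragc, chr4:123917314-123917333, plus strand: ttccgggCACGTGatagtac
Ctsd, chr7:142387913-142387932, minus strand: cgcgtctCACGTGacccgtt
Ctsa, chr2:164833754-164833773, plus strand: aaactgtCACGTGatgcaga
Lamp1, chr8:13159139-13159158, plus strand: accacatCACGTGcggaacg
Gla, chrX:134601187-134601206, minus strand: tctcggtCACGTGagcaact
Gaa, chr11:119267816-119267835, plus strand: gtgcgatCACGTGtttgact
Atp6v0d1, chr8:105566055-105566074, minus strand: ctgcggtCACGTGagacgcg
Tmem55b, chr14:50930891-50930910, minus strand: agcctgtCACGTGagcgggg
Hif1a, chr12:73907725-73907744, plus strand: agacaagCACGTGagcgggg
Lamp1, a main protein of the lysosomal membrane, holds 4 copies in its window. The first base of the motif lies at position -75 from the start site in Fnip1, -98 in Ctsd and -112 in Rragc. A match describes the letters and is not a measured binding site, and no match says only that the letters are not in this window.

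The genes whose pattern over the 8 group means was most like that of Gpnmb were Renbp, Mvd, Atp6v1c1, Uap1l1 and Clta, among 10195 tested genes with a mean of at least 5 CPM. Pearson's r of the group mean log2 CPM was 0.996 for Renbp, 0.994 for Mvd, 0.988 for Atp6v1c1, 0.986 for Uap1l1 and 0.983 for Clta. The 8 points share the split between media and include HGC and NGC, on which Gpnmb was chosen. In all 5 genes the highest NG3 value was that of NG3 replicate 3, so part of the shared NG3 height rests on that library. Renbp, which encodes a sugar epimerase first known for binding renin, averaged 50.5 ± 3.36 CPM in treated high glucose (SD, n = 7) and 26.8 ± 5.29 CPM in treated normal glucose (SD, n = 9). Within the media r over single libraries differed between the 5 genes. Over the 10 high-glucose libraries it was 0.11 for Renbp, 0.52 for Mvd, -0.37 for Atp6v1c1, a proton pump subunit gene, 0.21 for Uap1l1 and 0.10 for Clta. Over the 12 normal-glucose libraries it was 0.49 for Renbp, 0.44 for Mvd, -0.07 for Atp6v1c1, 0.56 for Uap1l1 and 0.30 for Clta.

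**Figure D5:**
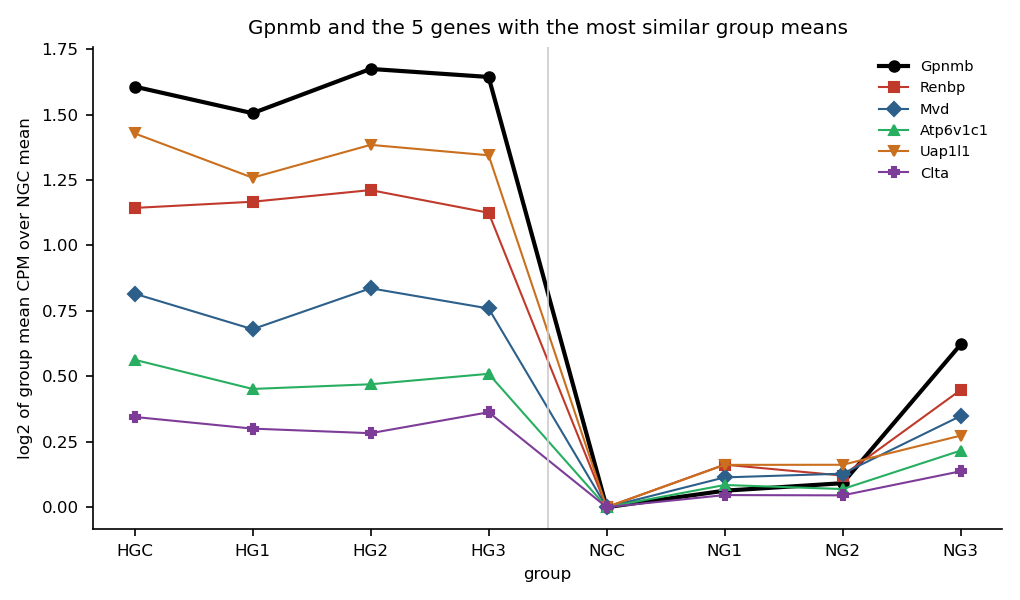
Log2 of each group's mean CPM over the NGC mean (y axis) for Gpnmb and the 5 genes with the most similar group means, by group (x axis), high glucose left of normal glucose. All 6 lines lie high in the 4 high-glucose groups, and the height of the step differs, largest in Gpnmb and smallest in Clta. Within normal glucose these means are highest in NG3, where replicate 3 had the highest value of each of the 5 genes. By median, NG3 lay above NG1 and NG2 in Renbp, Mvd and Uap1l1 but not in Atp6v1c1 and Clta. NGC is 0 by construction.

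Among the other members, Fnip1 ranked 26 of these 10195 genes by likeness to Gpnmb (r = 0.96) and Fnip2 ranked 58 (r = 0.95). Flcn ranked 293 (r = 0.88), Uvrag 438 (r = 0.83), Sqstm1 939 (r = 0.70) and Mitf 2353 (r = 0.41). Tfeb ranked 9294 (r = -0.70) and Tfe3 9751 (r = -0.80), at the far end of the order. Rragd was below the level needed to be ranked. The group means include HGC and NGC, on which the set was chosen, so nothing is read from these ranks. Within the media, r for Fnip1 was -0.24 over 10 high-glucose libraries and 0.30 over 12 normal-glucose libraries. In the same order it was -0.18 and -0.04 for Fnip2, -0.33 and -0.12 for Flcn, and -0.05 and 0.04 for Uvrag. For Sqstm1 it was 0.16 and 0.29, for Mitf -0.16 and 0.16, and for Tfeb 0.24 and 0.11. For Tfe3 r was 0.32 in high glucose and 0.56 in normal glucose, opposite in sign to its r over the group means.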

How the data were processed

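The values the authors deposited are raw read counts for each gene, with a file for each library. Tools listed in the submitters' processing notes are STAR 2.7.5c, HTSeq 1.99.2, FastQC 0.11.9 and DESeq2 3.16, with GRCm39 as the build; no strand setting is given there. Per the labels' protocols, polyadenylated RNA was used. Each file lists 56941 gene IDs, of which 51948 matched a symbol, and 5 HTSeq summary lines, kept out of library sizes and tests. Reads outside genes took 14.4 to 20.6%, ambiguous reads 3.46 to 4.15% and multiply aligned reads 16.5 to 18.9%.

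Sample titles gave the groups and replicate numbers, with HG and NG read as high and normal glucose and C as control. No label gives a batch. The 2 files with identical counts were left out. CPM is a gene's count scaled to the sum of gene counts of its library; CPM per kb divides by the union of exons in GENCODE vM21. Of the gene IDs, 43660 were removed by edgeR's filter on low counts, and 13281 were tested. All 10 members passed this filter, Rragd only through HG1 replicates 2 and 3. The counts were fitted with edgeR 4.0.16 in R 4.3.3 (TMM factors, 8 groups in 1 quasi-likelihood fit, 14 residual degrees of freedom, biological coefficient of variation 0.149), with Benjamini-Hochberg adjustment over all genes tested and a threshold of 0.05. The code was tested on simulated data. DESeq2 1.42.0 was an alternative, as were other size factors, no filter, other uses of the 2 identical files, fits without single libraries and a block for the replicate number. No p-value is printed for Gpnmb, or for a member in a comparison that contains HGC against NGC.

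The members and lists were chosen with earlier results of these data known. Named beyond the members were up to 4 genes per list with the smallest p past the threshold between treated media, and the 5 genes most like Gpnmb. Marker genes and genes with printed promoter windows were named besides these. Of the 119 list genes tested, 0 passed in a mogroside V comparison or in treatment by glucose.

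Same-numbered libraries of different groups did not deviate together (median correlation 0.0107, range -0.108 to 0.165, over 70 pairs), so the numbers were not taken to pair libraries. Promoters came from RefSeq on GRCm38.p6. The floors cover counting error only, while the SDs and standard errors include the spread between libraries.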

Additional observations from a re-analysis of the deposited data

How the results depend on the processing

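The 4 calls among the 9 members between treated media were made under every alternative other than leaving out 1 library, where 2 to 5 were made. Reported targets that rose numbered 19 to 22 of 30 with 1 library left out. With 1 library left out, genes called were 163 to 258 for HGC against NGC (303 with all), 654 to 1277 between treated media (1076), 65 to 179, 19 to 57 and 31 to 178 at dose labels 1, 2 and 3 (221, 101 and 122), 0 for mogroside V in high glucose (0), 0 to 10 in normal glucose (0), 0 to 185 summed over the 6 single dose comparisons (18) and 0 to 4 for treatment by glucose (1). Members called for mogroside V stayed at 0 in all fits, and since these comparisons use HGC or NGC nothing is read from it.

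Other settings moved counts of genes called, most of those below by over 1.5 times. Without NG3 replicate 3 and HGC replicate 2 they were 279 for HGC against NGC and 1362 between treated media, and 432, 187 and 207 at dose labels 1, 2 and 3 and 4 for mogroside V in normal glucose. With only the groups of the comparison in the fit they were 586, 280 and 4 at the dose labels. With all 24 files they were 198 at label 2, 354 at label 3, 54 over single doses, 3 for mogroside V in normal glucose and 6 for treatment by glucose. The shared file kept in HG2 gave 193 at label 2, 3 in normal glucose and 6 for treatment by glucose, and kept in HG3 it gave 325 at label 3, 3 and 3. With no low-count filter they were 228 at label 3, 262 over single doses, 5 and 62 for mogroside V in high and normal glucose and 42 for treatment by glucose. DESeq2 gave 350, 152 and 226 at the dose labels, 184 over single doses, 68 in normal glucose and 29 for treatment by glucose. RLE factors gave 6 over single doses. The cause was not tested. The replicate block gave 1068 genes between treated media, 4 members called, and no count moved by over 1.5 times.

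Depth limits Rragd most, at 0 to 15 reads per library, then Tfeb at 16 to 75 and Gpnmb at 32 to 150. With 2 libraries in HG2 and in HG3, and with replicates that may be technical, values at single dose labels are the least certain.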
